A study of Rattus norvegicus with 40 samples.

Results

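Candesartan, a blocker of the angiotensin II receptor, was compared with the vehicle Solvent A in rat kidney. The comparison takes 8 of the 40 arrays of the series, 4 labelled candesartan and 4 labelled Solvent A, with 2 of each from either strain. All rats were male and 16 weeks old. The SHRSP/Izm strain is stroke-prone and spontaneously hypertensive, and WKY/Izm is its normotensive relative. Candesartan was given at 5 mg/kg/day. Solvent A was a mixture of PEG300, EtOH and NaHCO3 at a drug dose of 0. The labels do not say which vehicle belongs to which drug, how long the rats were treated or by which route. The candesartan and Solvent A arrays shared a scan session and slide series that held no other array. Each label names 2 animals, 16 different ones over the 8 arrays, without stating whether an array took RNA of both. The p-values below measure the spread between such arrays of a group, pooled over all 40 arrays and so mostly from groups other than these. The pool includes WKY enalapril, whose arrays were scanned in separate sessions, so it also holds some spread between sessions.

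The other arrays of the series covered 5 further antihypertensive drugs and 3 further vehicles in the same strains. Of those drugs, 3 are set beside candesartan below, namely chlorothiazide, carvedilol and enalapril, each with a vehicle of its own.

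In the renin-angiotensin system, angiotensinogen is cut and angiotensin-converting enzyme trims the product to angiotensin II. That peptide acts mainly through a receptor that in rodents is encoded by a pair of genes, Agtr1a and Agtr1b. It narrows glomerular arterioles and raises sodium uptake along the tubule in the kidney. Outside the kidney it drives aldosterone release. It is also known to raise the output of matrix proteins and inflammatory signals. Candesartan binds the receptor tightly and lets go of it slowly.

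Levels are log2 values of quantile-normalised intensity, on a scale where the median probe of a deposited array was at 1 before log2 was taken. Values under 0.38, or -1.40 on the log2 scale, were set to that floor. A change is candesartan minus Solvent A on the log2 scale, with its standard error from limma, and a probe was called when its Benjamini-Hochberg adjusted p over 24993 probes was under 0.05. Probes flagged good made up between 70.3% and 72.5% of each of the 8 arrays. The tissue label was borne out by its markers. Kap, the kidney androgen-regulated protein of proximal tubules, lay between 8.39 and 8.68 in the 8 arrays, and the endocytic receptor gene Lrp2 between 7.27 and 7.61.

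Few probes were called with candesartan. Over both strains 13 probes were called, 6 higher (0.024%) and 7 lower (0.028%), which together is 0.052% of the probes tested, and 550 probes had an unadjusted p under 0.05. In SHRSP 11 were called (0.044%), with 2 higher (0.008%) and 9 lower (0.036%), and 843 had an unadjusted p under 0.05. In WKY 14 were called (0.056%), with 8 higher (0.032%) and 6 lower (0.024%), and 509 had an unadjusted p under 0.05. If no probe changed, a share of 0.05 of the 24993 would be expected under that threshold, and each of these unadjusted counts was smaller. With the scan session as a fixed block they were 815 over both strains, 1206 in SHRSP and 816 in WKY. Together these comparisons and the strain difference gave 28 distinct called probes. Of those, 12 carried a good flag on all 8 arrays and reached the floor on none of the 40, and these well-measured probes are described first. The count in SHRSP rose to 26 without the first SHRSP Solvent A array and to 25 without the first SHRSP candesartan array. Over both strains the count was 20 without the first SHRSP candesartan array, and in WKY it was 21 without the first WKY candesartan array and 9 without the second. The split over both strains was 3 higher and 7 lower when arrays were scaled to their medians in place of quantile normalisation. It was 1 higher and 5 lower in the authors' deposited series table, used without quantile normalisation or a floor. In WKY that table gave 1 higher and 4 lower. Fitted to the 8 arrays alone, with 4 residual degrees of freedom in place of 20, 8 probes were called over both strains, and 1 of them, GE21429, was among the 13. In that fit 1945 probes had an unadjusted p under 0.05 over both strains, against 550.

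**Figure D1:**
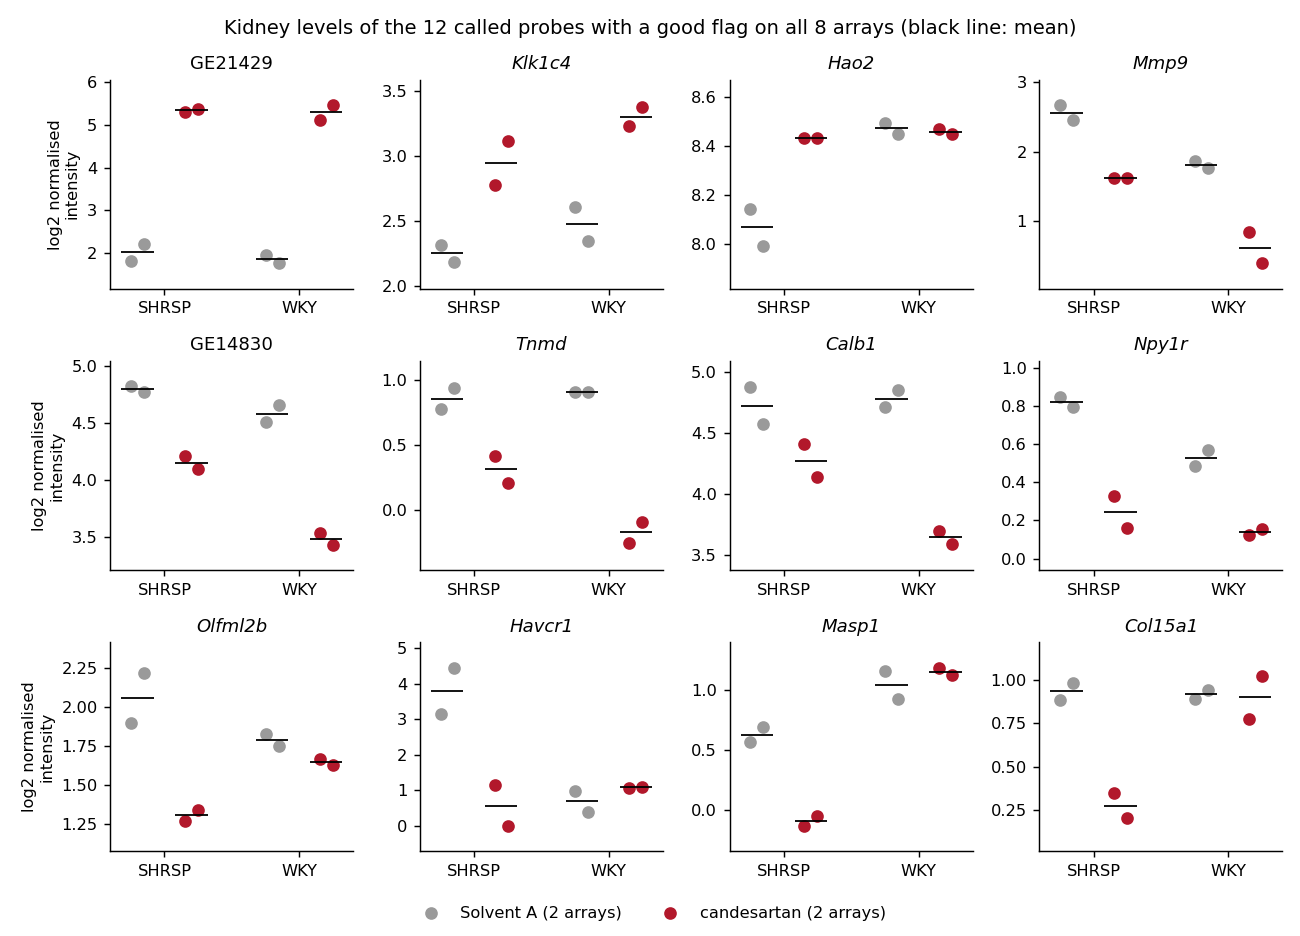
Log2 normalised intensity of the 12 called probes that were well measured, 1 point per array and a black line at the mean of the 2 arrays of a group, grey for Solvent A and red for candesartan. GE21429 lies at or above 5.12 in every candesartan array and at or below 2.21 in every Solvent A array, while Masp1 and Col15a1 separate in SHRSP and overlap in WKY.

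Among these 12 probes the change over both strains was largest for GE21429, to which the tables used here give no gene. In SHRSP it stood at 1.81 and 2.21 with Solvent A and at 5.31 and 5.38 with candesartan. In WKY it stood at 1.94 and 1.75 with Solvent A and at 5.12 and 5.47 with candesartan. All 4 candesartan arrays were far above all 4 Solvent A arrays, with hardly any distance between the strains. The change was 3.33 ± 0.28 in SHRSP (limma, adjusted p = 1.50e-06), 10.1-fold, and 3.45 ± 0.28 in WKY (adjusted p = 3.87e-07), 10.9-fold. Over both strains it was 3.39 ± 0.20 (adjusted p = 1.11e-09).

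Calb1 was lower with candesartan. It encodes calbindin-D28k, the calcium-binding protein that carries calcium through cells of the distal convoluted and connecting tubule. Its level in WKY was 4.71 and 4.86 with Solvent A against 3.70 and 3.59 with candesartan. In SHRSP it was 4.88 and 4.58 with Solvent A against 4.41 and 4.14. The groups did not overlap in either strain, and the gap was wider in WKY. Calb1 fell by 1.14 ± 0.14 in WKY, 2.20-fold (limma, adjusted p = 0.000286), and its change in SHRSP was -0.45 ± 0.14 (adjusted p = 0.621). The strains' responses differed by 0.69, which did not pass the test (adjusted p = 0.708). Over both strains the change was -0.80 ± 0.10 (adjusted p = 0.000282).

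Probe GE14830, also without a gene name here, followed a similar course. It read 4.82 and 4.77 in SHRSP and 4.51 and 4.66 in WKY with Solvent A. With candesartan it read 4.21 and 4.10 in SHRSP and 3.54 and 3.44 in WKY. Every candesartan array was below every Solvent A array, and the change was -0.87 ± 0.11 over both strains (limma, adjusted p = 0.00034) and -1.09 in WKY (adjusted p = 0.00213). In WKY the adjusted p was 0.0563 without the second Solvent A array and 0.0649 without the second candesartan array.

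The other measured genes of the distal convoluted tubule did not pass the test. That segment had 10 measured markers, Calb1 included. Without overlap, 4 lay lower and 3 higher in SHRSP, and 4 lay lower and 0 higher in WKY. Calb1 was among the lower ones in each strain. Over all probes tested, the 2 candesartan arrays lay below both Solvent A arrays for 17.1% in SHRSP and 16.1% in WKY, and above them for 17.9% and 16.7%. Slc12a3, the thiazide-sensitive sodium chloride cotransporter, had a change of -0.27 ± 0.07 over both strains (limma, adjusted p = 0.597), and a second probe of it gave -0.21 ± 0.06. Slc8a1, the sodium/calcium exchanger of the basolateral membrane, stood at 3.87, 3.80, 3.83 and 4.04 in the Solvent A arrays and at 3.41, 3.47, 3.43 and 3.56 in the candesartan arrays. Those ranges do not overlap, yet the change of -0.42 ± 0.10 missed the threshold (adjusted p = 0.285), and 2 dimmer Slc8a1 probes gave -0.09 and 0.07. Summed over the segment's markers, Calb1 included, linear intensity in SHRSP was 441 to 454 with Solvent A and 458 to 587 with candesartan. In WKY it was 387 to 440 against 371 to 375. In whole tissue such as this, fewer cells of a type and less RNA per cell cannot be told apart. The 16 measured genes of calcium and vitamin D handling had a median change of -0.00 in SHRSP and -0.01 in WKY, with Calb1 the member called. Among them S100g, the smaller calbindin, changed by 0.14 ± 0.15, and the vitamin D receptor gene Vdr by -0.01 ± 0.12.

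Mmp9 was lower in both strains. It encodes gelatinase B, a secreted protease that degrades type IV collagen and gelatin. With Solvent A its levels were 2.67 and 2.45 in SHRSP and 1.86 and 1.76 in WKY. With candesartan both SHRSP arrays read 1.63, and the WKY arrays read 0.84 and 0.39. Within each strain the drug arrays lay well under the vehicle arrays. Mmp9 fell by 1.06 ± 0.13 over both strains (limma, adjusted p = 0.000282). The change was -1.20 ± 0.19 in WKY, 2.29-fold lower (adjusted p = 0.00634), and -0.93 ± 0.19 in SHRSP (adjusted p = 0.0842). The WKY value lost its call without either WKY Solvent A array (adjusted p = 0.0848 and 0.0507) and without the second WKY candesartan array (0.287). Mmp9 is also a product of neutrophils. Of 9 measured neutrophil genes, Mmp9 included, 2 lay lower and 0 higher in SHRSP, and 3 lay lower and 3 higher in WKY. Over all probes 17.1% lay lower and 17.9% higher in SHRSP, and 16.1% and 16.7% in WKY. In SHRSP the 9 genes summed to 13.6 to 14.0 with Solvent A and 11.2 to 11.6 with candesartan. In WKY they summed to 11.2 to 11.7 against 9.67 to 10.7. Mmp9 is part of these sums, so they do not show whether the other neutrophil genes fell. S100a8, the neutrophil calgranulin gene, lay between the floor of -1.40 and -0.87 on the 8 arrays, and S100a9 changed by 0.27 ± 0.23.

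The measured inhibitors of Mmp9 did not pass the test. Timp1, the secreted inhibitor of gelatinase B, changed by -0.72 ± 0.18 in SHRSP and by 0.29 ± 0.18 in WKY, neither past the threshold. Timp2 changed by -0.21 ± 0.07 over both strains, also short of it (limma, adjusted p = 1). The gelatinase A gene Mmp2 changed by -0.10 in SHRSP and 0.03 in WKY.

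Npy1r and Tnmd were also lower over both strains. Npy1r encodes a receptor for neuropeptide Y, a transmitter that sympathetic nerves release with noradrenaline. Its probe GE14504 read 0.85 and 0.79 in SHRSP and 0.48 and 0.57 in WKY with Solvent A, against 0.33, 0.16, 0.13 and 0.16 with candesartan, all below the vehicle arrays. Npy1r fell by 0.48 ± 0.07 over both strains (limma, adjusted p = 0.00156) and by 0.58 in SHRSP (adjusted p = 0.0181). The SHRSP call was lost without either SHRSP Solvent A array (adjusted p = 0.106 and 0.0783) and without the second SHRSP candesartan array (0.317). A second Npy1r probe, GE22210, changed by 0.01, so the 2 probes of this gene disagreed.

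Tnmd encodes tenomodulin, a membrane glycoprotein best known from tendon and also made in fat. It read 0.78 and 0.93 in SHRSP and 0.91 and 0.90 in WKY with Solvent A, and 0.42, 0.21, -0.25 and -0.09 with candesartan in the same order. All candesartan arrays lay below all Solvent A arrays. Tnmd fell by 0.81 ± 0.12 over both strains (limma, adjusted p = 0.0018) and by 1.08 in WKY (adjusted p = 0.00528). In WKY the adjusted p lay between 0.0527 and 0.0957 without either Solvent A array or the first candesartan array. Adipose genes were counted beside it. The 11 measured had a median change of -0.21 in SHRSP and 0.14 in WKY. Without overlap, 4 lay lower and 1 higher in SHRSP, and 1 lay lower and 4 higher in WKY. Over all probes 17.1% lay lower and 17.9% higher in SHRSP, and 16.1% and 16.7% in WKY. The adipose genes' summed intensity in WKY was 100.4 to 119 with Solvent A and 111 to 117 with candesartan. In SHRSP it was 81.1 to 89.8 against 78.9 to 84.6.

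Olfml2b, which encodes a secreted olfactomedin-like protein of the extracellular matrix, separated chiefly in SHRSP. There it read 1.90 and 2.22 with Solvent A and 1.27 and 1.34 with candesartan. In WKY it read 1.83 and 1.75 against 1.67 and 1.63. Olfml2b fell by 0.75 ± 0.11 in SHRSP (limma, adjusted p = 0.00339), and its change in WKY was -0.14. The difference between the strains, -0.61, did not pass the test (adjusted p = 0.479). Over both strains the change was -0.44 ± 0.08 (adjusted p = 0.024), and of the 8 fits that left out 1 array only that without the first SHRSP Solvent A array kept the call. In SHRSP the call was lost without the second Solvent A array (adjusted p = 0.109).

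Among the 12 well-measured probes, Klk1c4 was the one with a gene name that rose over both strains. Tissue kallikrein cuts kininogen to release kinins, peptides that widen vessels, and the rat genome holds a cluster of closely related kallikrein genes whose probes may share transcripts. Klk1c4 read 2.31 and 2.19 in SHRSP and 2.61 and 2.35 in WKY with Solvent A. With candesartan it read 2.78 and 3.12 in SHRSP and 3.23 and 3.38 in WKY, above every vehicle array. Klk1c4 rose by 0.76 ± 0.13 over both strains (limma, adjusted p = 0.0268), and the call was lost without any 1 of 6 arrays (adjusted p up to 0.276). It held without the first SHRSP candesartan array and without the first WKY Solvent A array. Klk1c9 read -0.37, -0.41, 1.37 and 1.03 with Solvent A and 0.11, 0.35, 1.72 and 1.99 with candesartan, each strain separated, but its change of 0.64 ± 0.14 missed the threshold (adjusted p = 0.152). Klk1c3 was without overlap in both strains too, by 0.19 ± 0.11. The main renal kallikrein gene Klk1, at 7.23 to 7.56 on the 8 arrays, changed by 0.05 ± 0.09. Of 6 measured genes of the kallikrein and kinin list, 3 lay higher without overlap in both strains and 0 lower. Over all probes 2.51% lay higher in this way. The 3 are Klk1c4, named for its call, Klk1c9 and Klk1c3. Because their probes may share transcripts, the count is a description and no separate evidence for the family.

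None of the renin-angiotensin genes measured was called. The list named 26 genes, of which 21 were measured, so it does not cover the whole system. Changes of those 21 over both strains ran from -0.12 to 0.15 with a median of -0.02, beside a median of 0.0 over all probes. A separate value for the renin gene is not given here. Of 8 genes listed for renin-producing cells 5 were measured, with changes from -0.10 to 0.01, and 0 were called. Agtr1a, the gene of the receptor that candesartan occupies, read 4.00, 3.80, 3.95 and 4.00 with Solvent A and 3.99, 4.01, 4.20 and 4.07 with candesartan. That is a change of 0.13 ± 0.07 (limma, adjusted p = 1), and its sister gene Agtr1b changed by -0.08 ± 0.07. The angiotensinogen gene Agt changed by 0.15 ± 0.18, and a pair of Ace probes by -0.07 and 0.10. Agtrap, whose product binds the receptor and draws it into the cell, read 1.54 to 1.75 on the SHRSP arrays and 3.39 to 3.63 on the WKY arrays and changed by -0.12 ± 0.18. Among 18 genes of the aldosterone response 0 were called. Hsd11b2, the enzyme that shields the mineralocorticoid receptor from glucocorticoids, had a change of -0.22 ± 0.07 (adjusted p = 0.797). Sgk1, the aldosterone-induced kinase, changed by -0.03 in each strain, and the sodium channel gene Scnn1a by 0.14 in SHRSP and -0.31 in WKY.

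**Figure D2:**
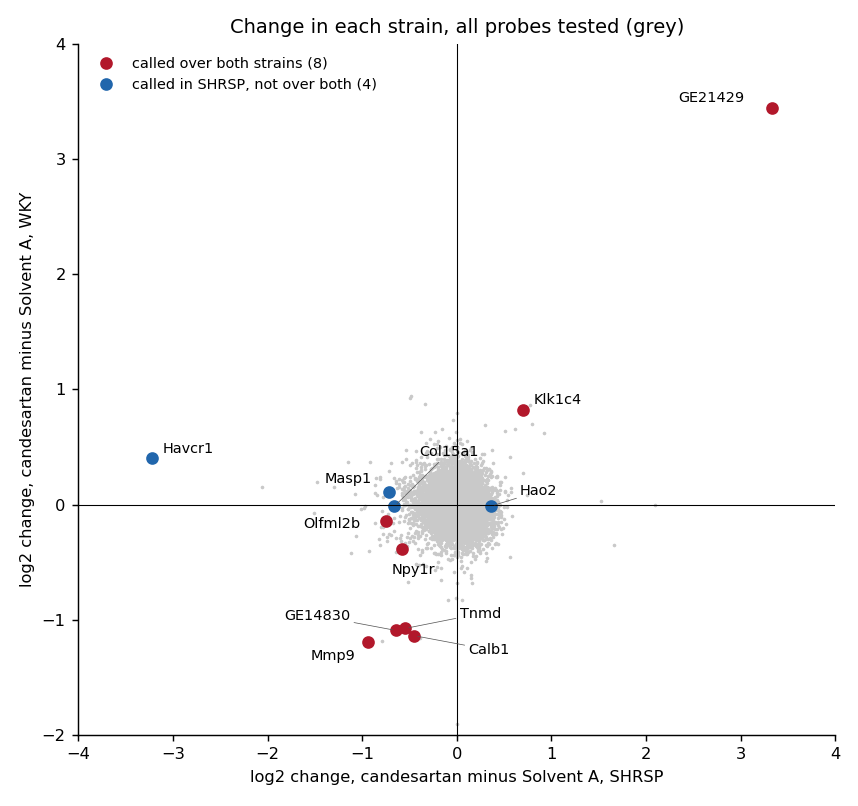
Log2 change with candesartan in SHRSP (horizontal) against WKY (vertical) for all probes tested (grey), with the 12 well-measured called probes coloured red where called over both strains and blue where called in SHRSP and not over both. The cloud shows no common direction, with Pearson r = -0.09 across 24993 probes, and 2 probes lie outside the axes.

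Across all probes the changes in the 2 strains were unrelated or weakly opposed, with Pearson r = -0.09 and Spearman rho = -0.12 over 24993 probes. Probes share arrays and are not independent replicates, so these correlations only describe the arrays. The SD of the change over probes was 0.14 in SHRSP and 0.13 in WKY.

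The well-measured genes called in SHRSP and not over both strains were Havcr1, Masp1, Col15a1 and Hao2. Havcr1 encodes kidney injury molecule 1, a receptor that damaged proximal tubule cells display. Probe GE1278517 read 3.14 and 4.46 with Solvent A and 1.15 and -0.01 with candesartan in SHRSP. In WKY it read 0.99 and 0.39 against 1.08 and 1.11. The SHRSP vehicle arrays stood apart above all others and differed widely from each other. Havcr1 fell by 3.23 ± 0.60 in SHRSP, 9.36-fold (limma, adjusted p = 0.0488), and its change in WKY was 0.40. The difference between strains was -3.63 ± 0.85 (adjusted p = 0.386). The SHRSP call was lost without the second Solvent A array (change -2.57, adjusted p = 0.713), without the second candesartan array (-2.65, adjusted p = 0.676) and, barely, without either WKY candesartan array (adjusted p = 0.0594).

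A second Havcr1 probe, GE13234, moved alike in SHRSP. It read 1.49 and 2.59 with Solvent A and 0.01 and -0.04 with candesartan, a change of -2.06 ± 0.41 (limma, adjusted p = 0.0842). In WKY it read 2.53, 2.37, 2.89 and 2.32. The 2 probes ranked the strains in opposite order. Over the other vehicles the SHRSP minus WKY difference was 3.13 for GE1278517 and -0.85 for GE13234.

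Masp1 encodes a serine protease that helps start the lectin pathway of complement. In SHRSP it read 0.57 and 0.69 with Solvent A and -0.13 and -0.05 with candesartan. In WKY the readings of 1.16, 0.93, 1.18 and 1.13 overlapped. Masp1 fell by 0.71 ± 0.12 in SHRSP (limma, adjusted p = 0.0159), away from the WKY level, and changed by 0.11 in WKY. The call was lost without the second Solvent A array or either candesartan array of SHRSP (adjusted p = 0.172, 0.120 and 0.0829).

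Col15a1 encodes a collagen of the basement membrane zone around vessels and muscle. Its SHRSP readings were 0.89 and 0.98 with Solvent A and 0.35 and 0.20 with candesartan, and the WKY readings were 0.89, 0.94, 0.78 and 1.02. Col15a1 fell by 0.66 ± 0.12 in SHRSP (limma, adjusted p = 0.0277) and changed by -0.02 in WKY. The adjusted p was 0.0588 without the first SHRSP Solvent A array, 0.263 without the second and 0.354 without the second SHRSP candesartan array.

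Hao2 rose in SHRSP. It encodes a peroxisomal enzyme that oxidises long-chain hydroxy acids. The SHRSP arrays read 8.14 and 7.99 with Solvent A and 8.43 on both candesartan arrays, and the WKY arrays read 8.49, 8.45, 8.47 and 8.45. With candesartan the SHRSP values thus came close under the WKY arrays. The change was 0.36 ± 0.05 in SHRSP (limma, adjusted p = 0.00339) and -0.01 in WKY, with a difference between strains of 0.38 (adjusted p = 0.146). Without the second SHRSP Solvent A array the change was 0.29 (adjusted p = 0.0859). Over the other vehicles SHRSP lay 0.09 below WKY for this probe.

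The other 16 called probes were at the floor on some of the 40 arrays or lacked a good flag on part of the 8, and sizes are given for them only where a bound could be set. Lum, the gene of the collagen-binding proteoglycan lumican, had a good flag on both SHRSP Solvent A arrays and on neither SHRSP candesartan array. It was at least 1.41-fold lower with candesartan in SHRSP (limma, adjusted p = 0.0291). In WKY, GE1157573 and GE1115484 were at least 1.73-fold and 1.66-fold higher with candesartan (adjusted p = 0.0133 and 0.0371). Ddx24, an RNA helicase gene, was called from a probe with a good flag on 3 of 8 arrays and no value on 2 of them, and a second probe of it changed by 0.01, so no size is given. Pak6, GE1258993 and GE1118515 were called higher and GE1165528 lower over both strains. Sh3gl1 and GE1272682 were called lower in SHRSP. Tsnaxip1 and GE1131224 were called higher and Gpsm2 and GE1207247 lower in WKY. Each of these 10 probes was at the floor on 29 to 36 of the 40 arrays, and no sizes are given for them.

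Beyond single calls, several gene groups lay lower with candesartan in SHRSP. In WKY their counts of lower members were near or under the background for most, and their counts of higher members were over it for several. The counts that follow are of members whose 2 candesartan arrays lay wholly below or above the 2 Solvent A arrays of their strain, against the backgrounds of 17.1% and 17.9% in SHRSP and 16.1% and 16.7% in WKY. The median change over all probes was 0.0 in each strain. The lists were chosen with earlier results of these arrays known, and the counts describe them only.

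**Figure D3:**
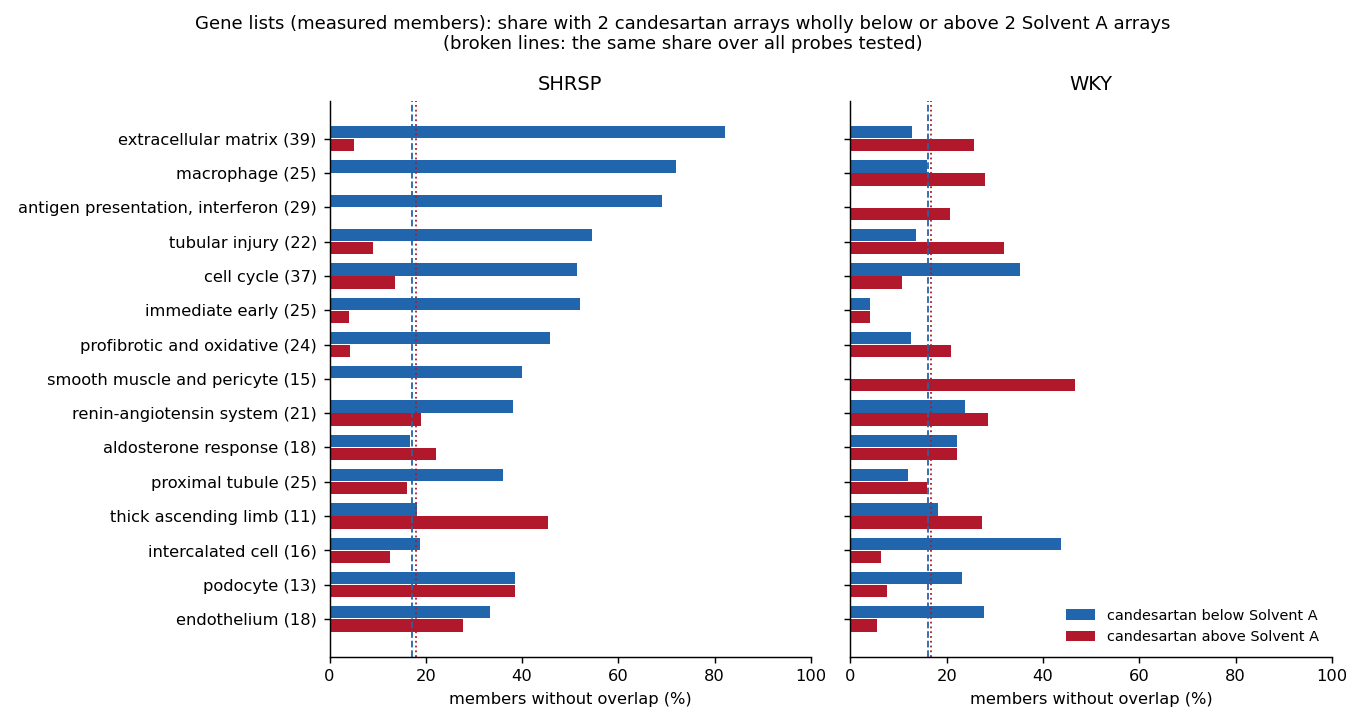
Share of the measured members of 15 gene lists (number in brackets) whose 2 candesartan arrays lay wholly below (blue) or above (red) the 2 Solvent A arrays, in SHRSP (left) and WKY (right), with broken and dotted lines at the same shares over all probes tested. In SHRSP the matrix, macrophage and antigen presentation lists reach the highest shares below, and in WKY none of these 3 exceeds 16% below. Above, they have 10 of 39, 7 of 25 and 6 of 29 members in WKY, each over the 16.7% of all probes.

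Extracellular matrix genes showed the clearest separation. In SHRSP 32 of 39 measured members lay lower and 2 higher, with a median change of -0.19 and a range from -0.98 to 0.20. In WKY 5 lay lower and 10 higher, with a median of 0.03. Col15a1 and Lum were the members called in SHRSP. Postn, the matricellular protein periostin, read 0.04 and 0.26 with Solvent A and -0.78 and -0.87 with candesartan in SHRSP, a change of -0.98 ± 0.26 (limma, adjusted p = 0.333), and -0.03 in WKY. Eln, the elastin gene, read 3.24 and 3.40 against 2.52 on both candesartan arrays, a change of -0.79 ± 0.23 (adjusted p = 0.446). Tnc, the matricellular tenascin C, gave -0.52 ± 0.12 with 1 probe and -0.49 ± 0.15 with another, neither past the threshold. Col1a1, the main fibrillar collagen, gave -0.19 ± 0.26 with its brighter probe and -0.67 ± 0.20 with its dimmer one. Fn1, the fibronectin gene, changed by -0.40 ± 0.14.

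Antigen presentation and interferon response genes gave 20 of 29 lower and 0 higher in SHRSP, with a median of -0.18, and 0 lower and 6 higher in WKY, with a median of 0.03. Psmb8, a subunit of the immunoproteasome, read 3.46 and 3.69 with Solvent A and 3.14 and 3.16 with candesartan in SHRSP. In WKY it read 3.37 and 3.17 against 3.49 and 3.61. Its change was -0.42 ± 0.13 in SHRSP and 0.28 ± 0.13 in WKY, neither past the threshold. Irf9, the DNA-binding part of the interferon-induced factor, changed by -0.34 ± 0.09 in SHRSP (limma, adjusted p = 0.232). B2m, the shared light chain of class I molecules, changed by -0.01 ± 0.09.

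Macrophage genes followed the same pattern, with 18 of 25 lower and 0 higher in SHRSP (median -0.21) and 4 lower and 7 higher in WKY (median 0.01). Their summed linear intensity was 220 to 230 with Solvent A and 191 to 193 with candesartan in SHRSP, and 156 to 169 against 166 to 167 in WKY. Gpnmb, a membrane glycoprotein of lipid-laden and phagocytic macrophages, changed by -1.07 ± 0.25 in SHRSP (limma, adjusted p = 0.202). The phagolysosomal pore gene Mpeg1 changed by -0.37 ± 0.10 and the tetraspanin Cd53 by -0.37 ± 0.10, and Cd68, a lysosomal marker, by -0.26 ± 0.14. Adgre1, the F4/80 antigen, changed by 0.01 in SHRSP. No measured member of this list was called in either strain.

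Markers of other cell types are given beside the matrix genes. None of the measured smooth muscle, lymphocyte or proximal tubule genes was called in SHRSP. Of 15 smooth muscle and pericyte genes 6 lay lower and 0 higher in SHRSP, with sums of 109 to 111 against 96.3 to 97.6, while 0 lay lower and 7 higher in WKY, with sums of 92.6 to 93.0 against 99.3 to 101. Tagln, an actin-binding protein of smooth muscle, changed by -0.33 in SHRSP and 0.34 in WKY. Of 16 T and B cell genes 7 lay lower and 1 higher in SHRSP. Proximal tubule genes summed to 3036 to 3080 with Solvent A and 2797 to 2937 with candesartan in SHRSP, and to 2935 to 2955 against 3008 to 3025 in WKY, with 9 of 25 lower and 4 higher and a median of -0.03 in SHRSP. Whether the makeup of the tissue samples bears on the lower matrix and immune gene levels was not tested.

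**Figure D4:**
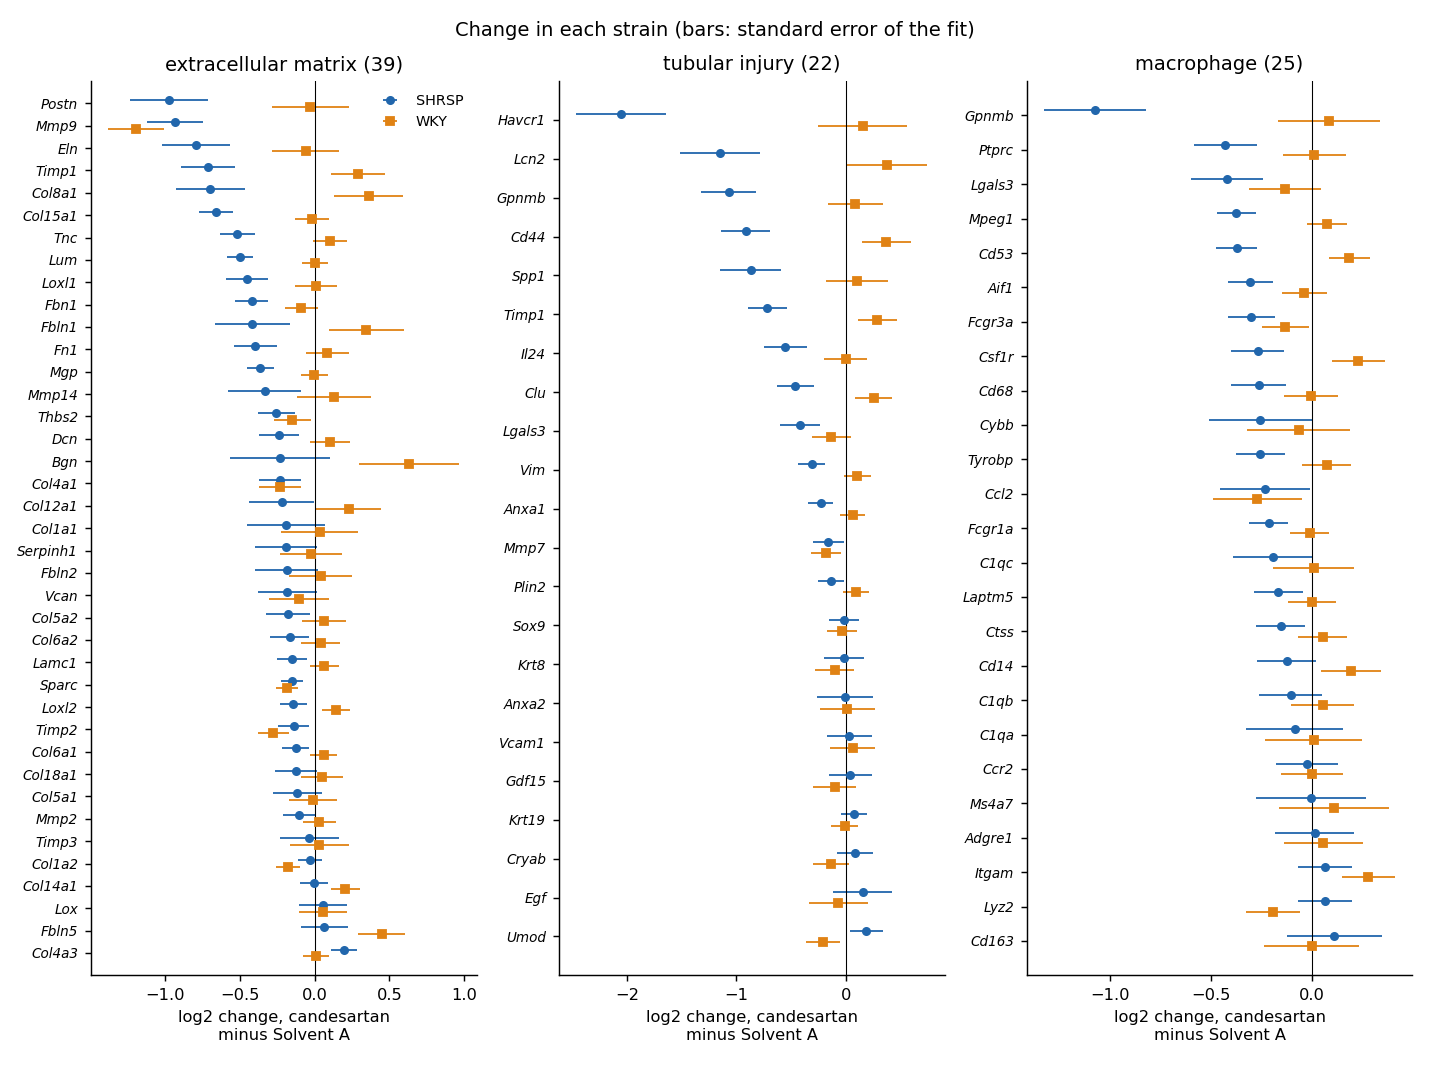
Log2 change with candesartan in SHRSP (blue circles) and WKY (orange squares) for the measured members of the extracellular matrix (39), tubular injury (22) and macrophage (25) lists, 1 probe a gene, with bars for the standard error of the fit. In SHRSP most points lie left of 0, down to -2.06 for Havcr1 (its brighter probe GE13234). In WKY they scatter on both sides of 0, from Mmp9 at -1.20 up to a matrix gene at 0.63.

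Tubular injury genes lay lower in SHRSP for 12 of 22 members and higher for 2, with a median of -0.19, and in WKY for 3 lower and 7 higher, with a median of 0.04. Lcn2, the secreted lipocalin used as an injury marker, read 2.82 and 3.51 with Solvent A and 2.15 and 1.89 with candesartan in SHRSP, a change of -1.15 ± 0.37 (limma, adjusted p = 0.701). Spp1, the gene of the secreted phosphoprotein osteopontin, read 5.79 and 6.28 against 5.33 and 5.01, a change of -0.87 ± 0.28. Cd44, its cell surface receptor, read 0.68 and 1.30 against -0.01 and 0.16, a change of -0.92 ± 0.22 (adjusted p = 0.232). The second SHRSP Solvent A array was the higher of the pair for Havcr1, Lcn2, Spp1, Cd44, Gpnmb and Timp1. Without any 1 of the 8 arrays, the median of the injury list in SHRSP stayed between -0.29 and -0.17, and that of the matrix list between -0.24 and -0.15.

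Cell cycle genes gave 19 of 37 lower and 5 higher in SHRSP and 13 lower and 4 higher in WKY. Top2a, the topoisomerase of dividing cells, changed by -0.80 ± 0.22 in SHRSP and -0.19 ± 0.22 in WKY. A pair of probes of the mitotic kinase gene Cdk1 both changed by -0.44 over both strains, with standard errors of 0.12 and 0.13 (limma, adjusted p = 0.439 and 0.797). Immediate early genes had the most negative list median in SHRSP, -0.29, with 13 of 25 lower and 1 higher, yet this hung on single arrays. Egr1 read 6.50 and 6.30 with Solvent A and 5.26 and 6.14 with candesartan in SHRSP, and 6.02, 6.30, 6.33 and 5.45 in WKY. Without 1 array at a time the SHRSP median ran from -0.53 to -0.09.

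In further lists of nephron segments and pathways 0 of the members counted here were called. Thick ascending limb genes gave 2 of 11 lower and 5 higher in SHRSP and 2 lower and 3 higher in WKY. Intercalated cell genes gave 3 of 16 lower in SHRSP and 7 lower in WKY. Podocyte genes gave 5 of 13 lower and 5 higher in SHRSP, and endothelial genes 6 of 18 lower and 5 higher. Fatty acid oxidation genes gave 3 of 28 lower and 7 higher in SHRSP, and cholesterol and fatty acid synthesis genes 6 of 26 lower and 7 higher. Among 24 profibrotic and oxidative genes known to answer to angiotensin II, 11 lay lower and 1 higher in SHRSP and 3 lower and 5 higher in WKY. The oxidase gene Nox4 among them changed by 0.02 ± 0.09 over both strains.

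The response of SHRSP minus that of WKY was called for 4 probes (0.016%), of which 3 were at the floor or lacked a good flag on part of the 8 arrays. The fourth, Nrf1, was flagged good on all 8 and was at the floor on 23 of the 40 arrays. In this comparison 828 had an unadjusted p under 0.05. No member of the matrix, antigen presentation, macrophage or injury lists passed this test, so a difference between the strains was not shown for any of their genes. Timp1 gave a strain difference of -1.01 ± 0.26 (limma, adjusted p = 0.481) and Cd44 of -1.29 ± 0.32 (adjusted p = 0.479). A description free of shared arrays took the strain difference from the arrays with the other 3 vehicles. Of 2303 probes (9.21%) higher in SHRSP than in WKY there, 672, or 29.2%, lay lower with candesartan in SHRSP and 410, or 17.8%, lay higher. Of the 211 probes higher by at least 1 on the log2 scale there, 44 (20.9%) lay lower and 51 (24.2%) higher, with a median change of 0.03. Among 2237 probes (8.95%) lower in SHRSP there, 361 (16.1%) lay lower and 441 (19.7%) higher. The shares over all probes in SHRSP were 17.1% lower and 17.9% higher.

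Enalapril blocks the same system a step earlier, by inhibiting angiotensin-converting enzyme, and was given to SHRSP at 20 mg/kg/day with H2O as its vehicle. The drugs' doses and vehicles differed, and the enalapril and candesartan comparisons share no arrays. Enalapril gave 245 calls in SHRSP (0.98%), 53 higher (0.212%) and 192 lower (0.768%). Of the 192 probes lowered by enalapril, 137 (71.4%) lay lower without overlap with candesartan in SHRSP and 4 lay higher, with a median candesartan change of -0.26. In WKY rats given candesartan, 42 of them (21.9%) lay lower and 49 (25.5%) higher, with a median of 0.0. Of the 53 probes raised by enalapril, 14 (26.4%) lay higher and 7 (13.2%) lower with candesartan in SHRSP. With candesartan in WKY 16 (30.2%) lay higher and 6 (11.3%) lower. The shares over all probes were 17.1% lower and 17.9% higher in SHRSP, and 16.1% lower and 16.7% higher in WKY. Across 24993 probes the changes with the 2 drugs in SHRSP had a Pearson r of 0.30 and a Spearman rho of 0.23, as a description.

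**Figure D5:**
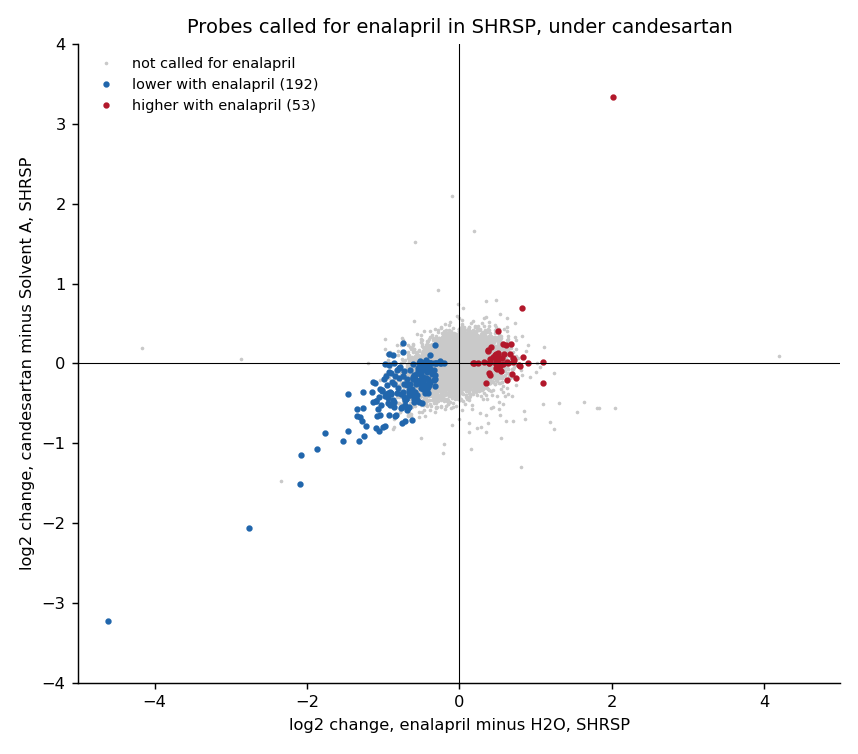
Log2 change in SHRSP with enalapril against H2O (horizontal) and with candesartan against Solvent A (vertical), for probes called lower (blue, 192) or higher (red, 53) with enalapril and all others (grey); 1 probe lies outside the axes. Most blue points lie below 0 on the vertical axis (137 of 192 without overlap), and the red point at the top is GE21429.

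Most of the 12 well-measured members were called with enalapril in SHRSP in the same direction. With enalapril in SHRSP the change was 2.02 for GE21429 (limma, adjusted p = 0.000789), -4.61 for Havcr1 probe GE1278517 (0.000614), -0.75 for Olfml2b (0.00097) and -0.84 for Col15a1 (0.000614). It was -0.62 for Masp1 (0.00892), -0.70 for Calb1 (0.0136), -0.76 for Tnmd (0.0241), 0.83 for Klk1c4 (0.0328) and -0.83 for GE14830 (0.00892). Mmp9 at -0.50, Npy1r at -0.19 and Hao2 at 0.03 were not called with enalapril (adjusted p = 0.262, 0.474 and 0.961). Only 2 probes (0.008%) differed between the drugs' responses in SHRSP, GE1244306 and GE1161666. Both were at the floor on more than 20 of the 40 arrays, so no size is given, and 1046 had an unadjusted p under 0.05. For GE21429 the difference was 1.31 (adjusted p = 0.831).

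Chlorothiazide, a thiazide diuretic given at 20 mg/kg/day against Solvent B, gave 28 calls over both strains (0.112%), 17 higher (0.068%) and 11 lower (0.044%). The candesartan and chlorothiazide responses differed for 24 probes (0.096%), 3 with a higher (0.012%) and 21 with a lower candesartan response (0.084%). GE21429 rose less with chlorothiazide, by 1.04 (limma, adjusted p = 0.0306), and the candesartan response exceeded that by 2.35 (adjusted p = 0.000669). Mmp9 changed by 0.17 with chlorothiazide, and the candesartan response was lower by 1.23 (adjusted p = 0.00395). Tnmd, Olfml2b and Npy1r had candesartan responses lower by 1.06 (adjusted p = 0.00399), 0.77 (0.00169) and 0.53 (0.0172). Calb1 fell by 0.73 with chlorothiazide too (adjusted p = 0.000588), and Klk1c4 rose by 1.23 (adjusted p = 6.7e-05). For some genes the responses differed while the candesartan change itself was not called. Dnaaf1, which helps assemble the dynein arms of cilia, rose by 0.70 with chlorothiazide and had a change of -0.38 with candesartan, a difference of -1.08 (adjusted p = 0.000669). Atp6v0d2, a subunit of the proton pump of intercalated cells, gave 0.36 with chlorothiazide and -0.16 with candesartan (difference -0.52, adjusted p = 0.000728). Tmem163, a zinc-binding membrane protein of vesicles, gave 0.43 and -0.35 (difference -0.77, adjusted p = 0.00255).

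Carvedilol, which blocks adrenergic receptors, was given at 50 mg/kg/day against Solvent C. It gave 37 calls over both strains (0.148%), 25 higher (0.1%) and 12 lower (0.048%). Its response differed from that of candesartan for 11 probes (0.044%), 7 with a higher (0.028%) and 4 with a lower candesartan response (0.016%). GE21429 did not rise with carvedilol, at -0.09, and the difference of 3.48 was called (limma, adjusted p = 6.55e-07). Scd, the desaturase that makes monounsaturated fatty acids, rose by 1.90 with carvedilol. With candesartan it changed by -0.57 over both strains and by -1.29 in SHRSP, where 1 candesartan array was at the floor, and the drugs' responses differed by -2.47 (adjusted p = 0.000356). Cdh13, the gene of T-cadherin, differed by -1.30 with its dimmer probe (adjusted p = 0.0244) and by -0.25 with its brighter one (adjusted p = 1). Pspc1, a paraspeckle protein gene, and Gstz1, an enzyme of tyrosine breakdown, differed by -0.82 and 0.33.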

How the data were processed

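CodeLink arrays were hybridised with Cy5-labelled cRNA made from total kidney RNA, per the labels. The authors' deposited array files hold a normalised intensity and a flag for each of 33849 probes, per the file headers. The median intensity of every array was 1, and 9269 of all values were not above 0, which background subtraction gives. Software, normalization method and the meaning of the flags are not stated in the labels or headers. The authors' deposited series table held identical intensity values (largest difference 0).

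Intensities were quantile normalised and set to a floor of 0.38, the median over arrays of each array's 1st percentile of good-flagged values. limma 3.58.1 (lmFit and eBayes, R 4.3.3) was run on the log2 values of all 40 arrays, with 1 mean per group of strain and compound and 20 residual degrees of freedom. The change over both strains averages the within-strain differences. Tested were the 24993 probes that some group had flagged good on both of its arrays and that no group lacked. A side with no good flag is given as "at least", against the higher of the array's lowest good-flagged value and the probe's own.

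Symbols came from the platform's probe table, updated through the RefSeq table of GRCr8 for 3 symbols: 16753 probes had 1, 165 several and 16931 none. Solvent A was taken as candesartan's vehicle by the scan session. The comparison, the 31 gene lists and the rule for named genes were chosen with earlier results of these data known. Named were all probes called over both strains, up to 10 per direction in each strain, up to 5 for each difference, a panel, and up to 5 members of each list by p. Tnmd and Olfml2b were kept out of the matrix list for that reason. Lists take the brightest probe per gene. Python 3.11.15 with pandas 2.3.3, NumPy 2.4.6 and Matplotlib 3.10.9 did the rest.

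Alternatives were median scaling, the series table, normexp, other floors and filters, the 8 arrays alone, session blocks, eBayes with trend and robust, array weights, POOR spots left out, and each array left out. The series table was taken as deposited, without quantile normalisation or a floor.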

Additional observations from a re-analysis of the deposited data

Results flagged for a closer look

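The test of the difference between the strains in the response to candesartan called 4 probes, each with a lower response in SHRSP, and the sizes are fitted values that rest on spots at the floor or without a good flag for 3 of them. Rbx1, a subunit of ubiquitin ligases, had a fitted difference of -8.951 ± 1.51 (SE) on the log2 scale (limma, adjusted p = 0.0457). Its probe had a good flag on 4 of the 8 arrays, was at the floor on 2 and had no value on 1, and over the alternatives the fitted value ran from -15.05 to -5.92, so it gives no size. Ddx24 had a fitted difference of -4.398 (adjusted p = 4.98e-06) on a probe with a good flag on 3 of the 8 arrays, no value on 2 and no good flag on either WKY Solvent A array. A second Ddx24 probe changed by 0.01 over both strains, and no size is read from the first. Nrf1, a transcription factor of nuclear genes for mitochondrial proteins, differed by -0.558 (adjusted p = 0.0451), from -0.30 in SHRSP and 0.26 in WKY. It was flagged good and above the floor on all 8 arrays, was at the floor on 23 of the 40, and lost the call without any 1 of 5 of the 8 arrays. GE1118515 had a fitted difference of -0.2813 (adjusted p = 0.0451) and was at the floor on 3 of the 8 arrays and on 34 of the 40. With good flags required on all 8 arrays, 0 probes were called and 640 had an unadjusted p under 0.05.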

How the results depend on the processing

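Over both strains the 13 calls became 6 in the authors' table, 37 with the floor doubled to 0.76, 8 in the 8 arrays alone, 22 with the session as a random block and 94 with array weights, and ran from 9 to 20 without 1 array. In SHRSP the 11 calls became 6 in the authors' table, 3 with normexp (2 higher and 1 lower), 36 with the doubled floor, 4 in the 8 arrays alone, 4 with trend and robust and 229 with array weights, and ran from 10 to 26. In WKY the 14 became 5 in the authors' table, 7 with normexp (3 higher and 4 lower), 30 with the doubled floor, 7 with a floor of 0.3 pooled over arrays (added after seeing the data), 6 with good flags on all 8 arrays, 0 in the 8 arrays alone (2099 at an unadjusted p under 0.05), 9 with trend and robust and 84 with array weights, and ran from 9 to 21. For the difference between strains the 4 calls became 1 with median scaling, 0 in the authors' table (627 unadjusted), 2 with normexp, 23 with the doubled floor, 2 with the pooled floor, 7 with no filter, 0 with good flags on all 8 arrays (640), 0 in the 8 arrays alone (2698), 2 with the session as a fixed block, 1 with trend and robust, 126 with array weights and 0 without POOR spots (821), and ran from 0 to 14. The 11 differences from carvedilol became 31 with no filter and 18 with the random block, and the 2 from enalapril became 0 with median scaling (883 unadjusted) and 27 with no filter. GE1118515 reversed over both strains, to -0.1656 in the authors' table and -0.0247 with normexp. The causes were not tested. Of the named genes' values under these alternatives, 13595 kept their side of the threshold, 265 lost a call and 89 gained one. The 13595 include values called in neither fit, which had no call to lose. They are therefore no measure of how stable the calls were. Over both strains the calls of Calb1, Mmp9, GE14830, Npy1r and Tnmd were lost in 1 of 13 such settings, the 8 arrays alone, and in 0 of the 8 that left out an array. Havcr1 lost its SHRSP call in 7 of the 13, Hao2 in 4, and Klk1c4 and Olfml2b lost theirs over both strains in 3. The SHRSP medians of the matrix, antigen presentation, macrophage and injury lists were negative in all 13 settings, from -0.25 to -0.07. With median scaling 21.7% of all probes lay lower in SHRSP, with 31 of 39 matrix, 23 of 29 antigen presentation and 18 of 25 macrophage genes, and 143 of the 192 probes lowered by enalapril. No paired analysis was made, because the 8 arrays name 16 different animals and the labels pair none of them. Precision is limited by there being 2 arrays in a group.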
